A study of Mus musculus with 46 samples.

Results

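C/EBPα is a transcription factor that binds DNA as a dimer and drives the expression of metabolic genes in hepatocytes. The loci described here are the genomic regions where a C/EBPα ChIP-seq peak was listed in both livers from a lipid-rich diet (LD) and in neither liver from a carbohydrate-rich diet (CD). Overlapping peaks of the 4 deposited HOMER peak lists were merged into 97466 loci, and 5045 of them (5.18%) met this rule. They are called LD-only loci below, in the sense of peak lists. The lists hold no value where no peak was called, so that an LD-only locus may have had C/EBPα signal below the calling limit on CD. The loci were chosen by the presence of C/EBPα peaks, so that their presence and height are given as a description with no test. RNA, H3K27ac, Hnf4α and promoter contacts took no part in the choice.

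Male C57BL/6 mice, bought at 5 weeks of age, were kept for up to 20 weeks on the LD, with 60% of the energy from lipid, 20% from carbohydrate and 20% from protein, or on the CD, with 10%, 70% and 20%. Livers were studied by ChIP-seq for C/EBPα and Hnf4α (2 samples per diet), ChIP-seq for H3K27ac (3 per diet), RNA-seq (5 per diet) and promoter capture Hi-C (PCHi-C, 2 libraries per diet, pooled by the authors). Whole liver was used, so that fewer cells of a type and less signal per cell cannot be told apart. The labels do not tie a ChIP-seq sample to an RNA-seq sample.

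Some background helps to read the loci. C/EBP proteins prefer a palindromic site made of the half-site TTGC and its complement, and in liver C/EBPα shares many of its regions with Hnf4α, the nuclear receptor that maintains hepatocyte identity. H3K27ac, acetylation of lysine 27 of histone H3, marks active enhancers and promoters. PCHi-C lists the DNA fragments that touch a captured promoter more often than the distance between them would give.

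The sequences below show what the LD-only loci look like, as the central 200 bases on the plus strand of NCBIM37 (mm9), the build of the deposited files. Capitals mark the string TTGCNNAA on either strand, where N is any base. This string was found in the central 200 bases of 25.29% of all C/EBPα loci. The first pair are the highest nuclear LD-only loci, an intergenic locus 132.4 kb from 4930559C10Rik at chr12:94550749-94550948 and an intron of Mbnl1 at chr3:60312000-60312199.

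4930559C10Rik locus: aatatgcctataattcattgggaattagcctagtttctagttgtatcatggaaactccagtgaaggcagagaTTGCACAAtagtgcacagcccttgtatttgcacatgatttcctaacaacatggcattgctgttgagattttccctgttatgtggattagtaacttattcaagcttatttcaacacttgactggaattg

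Mbnl1 locus: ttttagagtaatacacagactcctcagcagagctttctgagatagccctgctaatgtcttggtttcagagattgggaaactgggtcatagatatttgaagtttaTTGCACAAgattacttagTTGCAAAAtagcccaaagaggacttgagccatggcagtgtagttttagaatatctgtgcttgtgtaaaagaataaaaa

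The next 4 lie near genes whose RNA differed between the diets, and they were chosen after their values were seen. They lie 2.9 kb upstream of Irs1 (chr1:82290806-82291005), 1.0 kb upstream of Plin4 (chr17:56250115-56250314), 49.3 kb upstream of Plin2 (chr4:86365131-86365330) and 3.9 kb downstream of the start of Orm2 (chr4:63027304-63027503). The Plin4 window held no such string, and the Irs1 and Plin2 windows held 2 each.

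Irs1 locus: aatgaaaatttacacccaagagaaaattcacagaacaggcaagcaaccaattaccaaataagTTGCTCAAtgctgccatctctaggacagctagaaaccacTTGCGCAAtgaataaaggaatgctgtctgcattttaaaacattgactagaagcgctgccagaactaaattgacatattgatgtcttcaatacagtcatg

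Plin4 locus: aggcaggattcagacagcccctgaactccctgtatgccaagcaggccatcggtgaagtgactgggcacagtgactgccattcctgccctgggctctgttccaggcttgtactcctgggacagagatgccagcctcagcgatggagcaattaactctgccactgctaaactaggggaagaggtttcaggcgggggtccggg

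Plin2 locus: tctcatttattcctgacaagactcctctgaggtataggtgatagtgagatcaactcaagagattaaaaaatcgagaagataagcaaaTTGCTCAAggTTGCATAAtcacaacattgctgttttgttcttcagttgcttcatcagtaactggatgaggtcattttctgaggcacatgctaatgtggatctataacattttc

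Orm2 locus: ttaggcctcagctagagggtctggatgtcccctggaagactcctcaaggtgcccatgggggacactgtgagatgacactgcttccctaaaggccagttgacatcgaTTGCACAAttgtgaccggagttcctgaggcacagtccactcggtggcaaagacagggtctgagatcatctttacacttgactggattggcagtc

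The peak lists differed in ways that bear on the rule. Each list was scaled from about 20000000 tags, and the lists held 38281 and 39310 peaks on LD and 41713 and 46371 on CD. On LD, 28.1% and 29.6% of the loci of a list were in no other list, against 40.3% and 54.5% on CD. By the same rule 1723 loci were CD-only, and 13813 loci had a peak in all 4 lists. The CD lists thus shared a smaller part of their loci, and the part of this in the excess of LD-only over CD-only loci was not tested. At the same number of peaks in each list (38281), 5075 loci were LD-only and 1482 CD-only. With only CD replicate 2 to represent the CD, 8766 loci met the rule, and with only LD replicate 1 or LD replicate 2 to represent the LD, 15837 and 16694 did.

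LD-only and CD-only loci were lower peaks than loci in all 4 lists. LD-only loci had heights close to the medians of the whole LD lists. Height is the number of tags at the peak, scaled to a library of 10000000 tags. Among the 5044 nuclear loci the median height was 11 tags in LD replicate 1 and 12.5 in LD replicate 2, with a range of 5.5 to 125.5 and 5.5 to 137.5. CD-only loci had medians of 11 and 9.5 in the CD samples. The whole lists had medians of 11.5 and 12.5 on LD and of 13 and 8.5 on CD. Loci found in all 4 lists had medians of 24 and 25.5 on LD and of 37.5 and 25 on CD. A height above 50 was reached by 44 LD-only loci in LD replicate 1 and 111 in LD replicate 2, against 1926 and 2269 of the loci in all 4 lists. The LD replicates gave similar heights: 94.8% of the loci were within 2-fold, and replicate 2 was the higher at 62.9%. A further member, on the mitochondrial genome (heights 4688.5 and 5801.0, only 5.3- and 9.08-fold over the control), was set apart.

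**Figure D1:**
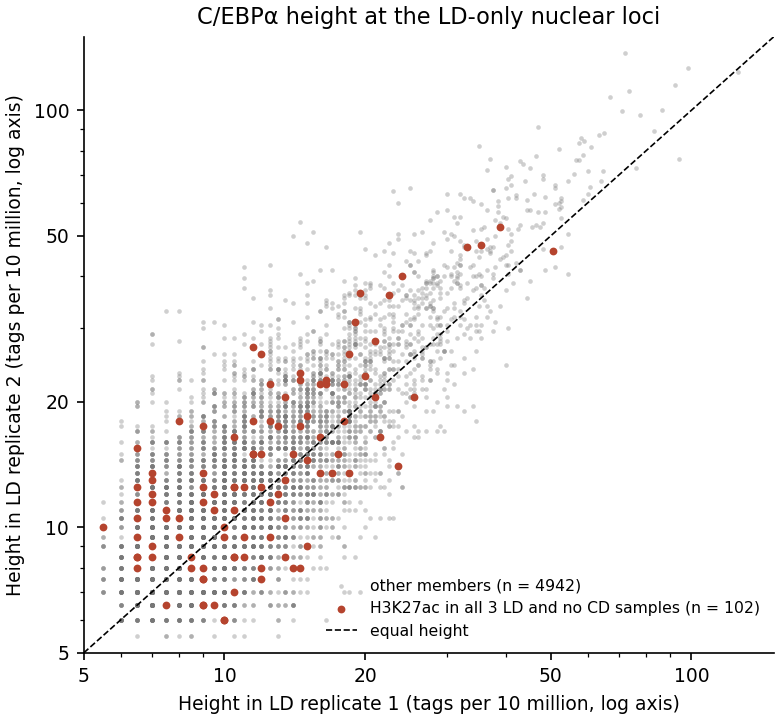
C/EBPα height of each nuclear LD-only locus in LD replicate 1 (horizontal) and LD replicate 2 (vertical), in scaled tags on log axes. Points lie along the dashed line of equal height, most of them near the medians of 11 and 12.5, and the 102 loci with H3K27ac on LD alone (red) have mean heights of 7 to 48.25.

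Just inside the rule, 32 loci had a height of 5.5 in an LD list, the lowest among the LD-only loci. Just outside it, 3713 loci had a peak in both LD lists and in CD replicate 1, where their median height was 16.5, and 1344 had one in CD replicate 2, with a median of 11.5. Loci of a single LD list, 10767 and 11625 in number, had a median height of 7.

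LD-only loci lay farther from genes than CD-only loci and loci in all 4 lists. Of the 5040 loci with a usable window, 50.56% were in introns, 44.48% were intergenic and 4.96% were in exons. A transcription start site (TSS) was within 1 kb of 6.09% of them. The share was 15.06% for CD-only loci, 13.92% for loci in all 4 lists and 8.14% for every C/EBPα locus. The median distance to a TSS was 27.1 kb, against 21.5 kb for CD-only loci, 18 kb for loci in all 4 lists and 30.5 kb for every locus. Of the 5045 loci, 3300 (65.4%) had the TSS of a gene within 50 kb.

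Base composition set the LD-only loci apart from CD-only loci and from loci in all 4 lists. The GC content of the central 200 bases had a median of 42% in LD-only loci. It was 50.75% at CD-only loci and 49% at loci of all 4 lists. Of the C/EBPα loci with a GC content below 40%, 22.01% were LD-only. The share fell to 9.61% between 40% and 45%, to 2.97% between 45% and 50%, and to 1.73% at 50% or more. The whole lists differed in the same direction, with median GC contents of 47% and 46.5% in the LD lists and of 49% and 50% in the CD lists. So did loci found in a single list, with medians of 45.5% and 43% on LD and of 49.5% and 50% on CD. Composition moved with diet in all the libraries, and the part of library preparation in the LD-only loci was not tested.

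LD-only loci were also more frequent on the X chromosome, where 106 of 883 C/EBPα loci (12%) were LD-only against 5.11% on the autosomes. Below 40% GC the shares were 38.97% on the X chromosome and 21.7% on the autosomes, and between 40% and 45% they were 18.02% and 9.5%. At 50% GC or more they were 1.13% and 1.73%. CD-only loci made up 3.4% of the X loci and 1.75% of the autosomal loci.

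The C/EBP string TTGCNNAA was common in LD-only loci. It was present in 42.88% of the central windows (95% Wilson interval 41.52 to 44.25, which covers counting error only), against 8.31% of windows of the same length 1000 bp away. CD-only loci had it in 27.15%, loci of all 4 lists in 46.98% and every C/EBPα locus in 25.29%. In 64.83% of the LD-only windows that held it, a string lay within 25 bp of the centre. The string is rich in A and T, and its share fell with GC content in LD-only loci and in loci of all 4 lists. LD-only loci had it in 56.1% below 40% GC and in 23% at 50% GC or more, and loci of all 4 lists in 64.9% and 40.8%. Its share rose with height, from 37.6% in the lowest quartile group of the LD-only loci to 52.1% in the highest, while the median GC content fell from 44% to 39.5%.

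**Figure D2:**
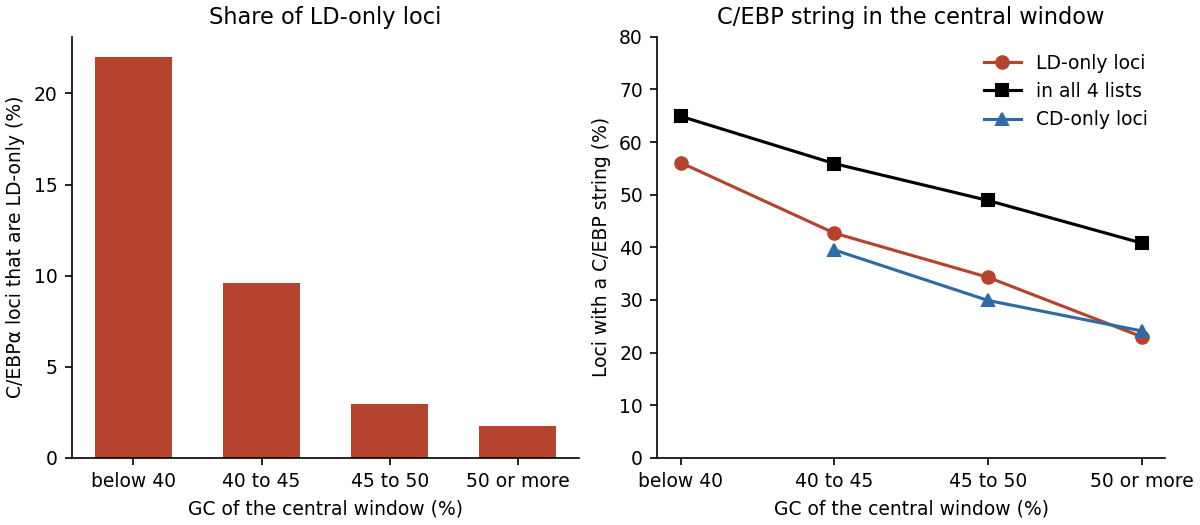
Left, the percentage of C/EBPα loci that were LD-only in each band of GC content of the central 200 bases; right, the percentage of LD-only loci, loci in all 4 lists and CD-only loci with the string TTGCNNAA in each band (a band with under 20 loci is left out). The share of LD-only loci falls from 22.01% to 1.73% with rising GC, and the string is less common in LD-only loci than in loci of all 4 lists in each band.

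Among the forms of the string, TTGCACAA (with its complement TTGTGCAA) was the commonest, in 9.76% of LD-only loci and 11.24% of loci in all 4 lists. TTGCAAAA followed TTGCTCAA in LD-only loci, at 5.87% and 5.89%. The symmetric form TTGCGCAA was in 1.31% of LD-only loci, in 1.92% of CD-only loci and in 2.67% of loci in all 4 lists. The composite C/EBP-ATF string TTGCATCA, which joins a C/EBP and an ATF half-site, occurred at 4.5% of LD-only loci. Its share was 4.65% at CD-only loci, 5.21% at loci in all 4 lists and 2.9% over all C/EBPα loci.

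Strings of other factors were searched in the same windows on both strands. The HNF4 string CAAAGTNCA was in 5.22% of LD-only loci, 2.44% of CD-only loci and 4.33% of loci in all 4 lists. The AP-1 string TGANTCA was in 9.01%, 5.29% and 7.51%, and the FOXA string TGTTTAC in 5.91%, 3.84% and 5.01%. The D-box TTATGTAA, the site of the PAR bZIP factors, was in 2.6%, 1.22% and 1.38%. In the other direction, the GC box GGGCGG was in 2.62%, 10.87% and 9.02%, the E-box CACGTG in 2.34%, 7.15% and 5.09%, and the STAT string TTCCNNGAA in 2.84%, 5.7% and 3.89%. Over all C/EBPα loci the shares were 2.45% for HNF4, 7.02% for AP-1, 3.67% for FOXA, 1.1% for the D-box, 5.73% for the GC box, 3.97% for the E-box and 3.4% for STAT. A match is a string of letters and not a shown site, and the part of base composition in these shares was not tested.

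In each sample H3K27ac was listed at more LD-only loci than not. A SICER peak of H3K27ac overlapped 64.36%, 62.83% and 62.46% of the LD-only loci on LD, by sample. On CD the shares were 58.81%, 57.62% and 59.70%. Every LD sample was above every CD sample. The means were 63.22% ± 1.01 and 58.71% ± 1.04 (SD, n = 3), a difference of 4.51 points (exact permutation test, two-sided, p = 0.1, the smallest that 3 against 3 samples allow). The difference was 1.52 points at loci in all 4 lists, 1.5 at every C/EBPα locus and -1.33 at CD-only loci, where the diets overlapped. The mean shares were 81.1% on LD and 79.58% on CD at loci in all 4 lists, and 37.79% and 36.29% at every C/EBPα locus. Taken within each sample against the loci in all 4 lists, the excess on LD was 2.99 points (exact permutation test, two-sided, p = 0.1). The H3K27ac lists of the LD samples covered 149.8 to 160.4 Mb and those of the CD samples 139.7 to 145.4 Mb, and the part of list size was not tested beyond the comparison with the other loci.

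By pattern, 2486 LD-only loci (49.28%) had H3K27ac in all 6 samples and 1420 (28.15%) in none. These shares were 30.74% and 56.48% over every C/EBPα locus, and 72.53% and 12.97% at loci in all 4 lists. H3K27ac in all 3 LD samples and no CD sample was found at 102 LD-only loci, 2.02% against a background of 0.653% over all C/EBPα loci. The opposite pattern was found at 12 LD-only loci, 0.24% against a background of 0.215%. Loci in all 4 lists had these patterns at 0.75% and 0.28%. The 102 loci had a median GC content of 44.8% and a median height of 11.625, and 39 of them held the C/EBP string. The share with H3K27ac on LD rose with C/EBPα height, from 48.7% in the lowest quartile group to 76.4% in the highest, and that on CD from 45.2% to 71.6%.

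Hnf4α was listed at 44.34% and 45.49% of LD-only loci on LD, and at 30.41% and 43.75% of them on CD. The LD samples lay above both CD samples, but CD replicate 1 stood apart, with 35143 peaks against 44247 to 47992 in the other lists. The difference of 7.84 points (exact permutation test, two-sided, p = 0.3333, where 2 against 2 samples cannot go lower) was 1.17 points without CD replicate 1 and 14.51 without CD replicate 2. At the same number of peaks in each list it was 6.43 points. At loci in all 4 lists CD replicate 2 was the highest sample, at 68.29% against 64.48% and 64.79% on LD. Hnf4α in both LD samples and no CD sample was found at 238 LD-only loci, 4.72% against a background of 1.43%, and the opposite at 51, 1.01% against a background of 0.633%. Loci in all 4 lists had these patterns at 2.31% and 1.4%.

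Both H3K27ac and Hnf4α were listed, in any sample, at 46% of LD-only loci, and neither at 16.1%. The median height was 13.5 in the former and 9.5 in the latter. Among CD-only loci 28.9% had both and 39.3% neither, and among loci in all 4 lists 70.7% had both and 5.5% neither.

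**Figure D3:**
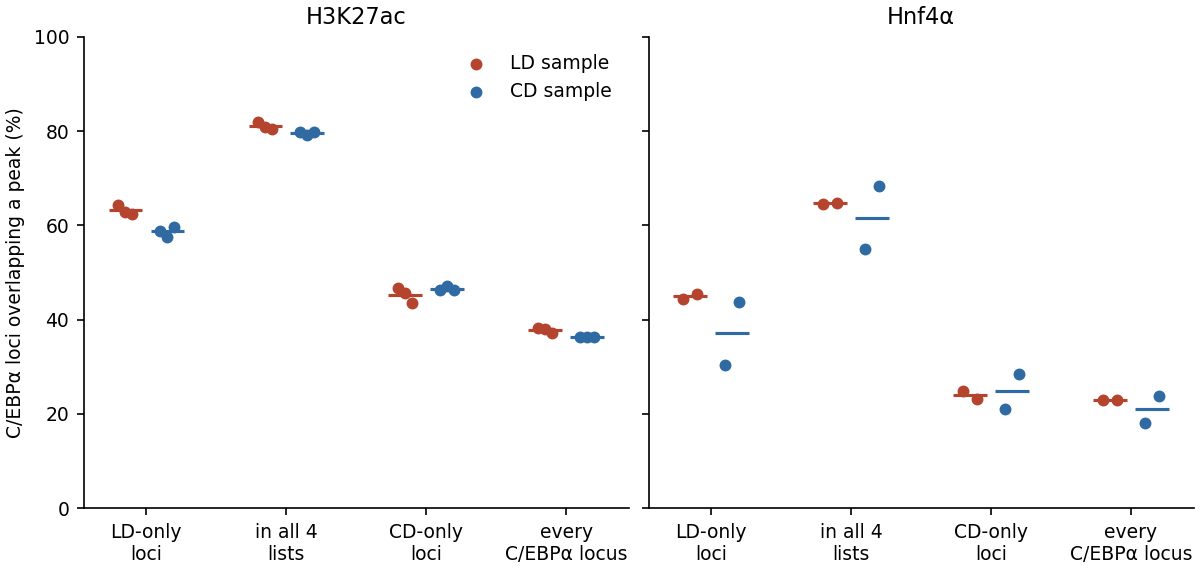
Percentage of C/EBPα loci that overlap a peak of H3K27ac (left, 3 samples per diet) or Hnf4α (right, 2 samples per diet) for LD-only loci, loci in all 4 lists, CD-only loci and every C/EBPα locus; points are samples and lines are means. At LD-only loci the LD samples lie above the CD samples for H3K27ac by 4.51 points, and for Hnf4α a single CD sample, at 30.41%, makes up most of the difference.

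Promoter contacts of LD-only loci were similar on both diets. With the pooled lists, 1036 LD-only loci (20.54%) lay on a distal fragment in contact with a promoter on LD and 1112 (22.04%) on CD, where the lists are pooled and no test over samples is possible. Loci in all 4 lists had contacts at 22.99% and 25%, CD-only loci at 18.05% and 19.09%, and every locus at 17.36% and 17.5%. On both diets 877 LD-only loci had a contact, with 159 on LD alone and 235 on CD alone. Of 2561 pairs of a locus and a promoter, 1454 (56.77%) were in both lists. Their median CHiCAGO score was 7.68 on LD and 8.14 on CD, while pairs of a single list lay near the calling limit of 5, with medians of 5.68 and 5.78.

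RNA was set beside the loci by the genes with a TSS within 50 kb. All 10 RNA libraries held 31707963 to 39012699 counts, and levels are given below as CPM, the counts of a gene scaled by edgeR to library size. Genes were called by edgeR's quasi-likelihood test at a Benjamini-Hochberg adjusted p under 0.05 and a fold change above 1.2. The p-values measure the spread between samples, which the labels name as replicates. Of 5871 genes near LD-only loci 4135 passed the filter on low counts. Among them 621 (15%) were higher on LD, against 13.8% of all 13494 genes tested, and 513 (12.4%) were lower, against 11.1%. The median log2 fold change of 0.00 was that of all genes. Both shares were thus within 2 percentage points of the background. With limma on log2(TPM + 1) the split was 760 higher and 261 lower, against 2178 higher and 732 lower over all genes tested that way.

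Genes near loci in all 4 lists were higher in 13.5% and lower in 12.6%, and genes near CD-only loci in 12.1% and 13.8%. The 3067 genes with 1 LD-only locus nearby were higher in 14.4%, the 845 with 2 in 17% and the 223 with 3 or more in 15.2%. By distance of the nearest LD-only locus, 12.3% of genes were higher and 14% lower within 1 kb, and 15.4% were higher and 11.2% lower at 25 to 50 kb. LD-only loci with the C/EBP string had 16.3% of the genes higher and 12.6% lower, and those without it 15.2% and 12.5%. By height, 14.9% were higher near the highest quartile group and 15.7% near the lowest. The 952 genes with an LD-only locus but none of the loci in all 4 lists were higher in 15.9% and lower in 8.72%. The 3183 genes with both kinds of loci were higher in 14.8% and lower in 13.5%. The 5631 genes with loci in all 4 lists but no LD-only locus were higher in 12.8% and lower in 12.1%. Among genes below 1 CPM on average, 21.5% of the 339 near LD-only loci were higher, against 16.8% of all 1421 such genes, while above 100 CPM the shares were 14.4% and 14%. Every LD value was above every CD value in 458 of the 4135 genes (11.08%), against a background of 10.2%, and below in 384 (9.29%), against 8.35%.

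The RNA was then split by the marks at the LD-only loci. Near the 102 LD-only loci with H3K27ac on LD alone, 25 of 81 genes tested were higher on LD (30.9%) and 4 were lower (4.94%), with a median log2 fold change of 0.13. Other C/EBPα loci with the same H3K27ac pattern had 129 of 508 nearby genes higher (25.4%) and 24 lower (4.72%), and a median of 0.14. Among these, loci in all 4 lists had 22 of 91 higher and 3 lower. Near the 12 LD-only loci with H3K27ac on CD alone 0 of 7 genes were higher and 4 lower. Other C/EBPα loci with H3K27ac on CD alone had 15 of 166 nearby genes higher (9.04%) and 52 lower (31.3%). LD-only loci with H3K27ac in all 6 samples had 13.7% of 2861 genes higher and 13.5% lower, and those with none 18% of 798 higher and 10.2% lower. A test of the difference between LD-only and other loci was not made. Where Hnf4α was on LD alone, 52 of 234 genes near LD-only loci were higher (22.2%) and 25 lower (10.7%), against 190 (15.3%) and 127 (10.2%) of 1245 near other C/EBPα loci. Where Hnf4α was on CD alone, 11 of 55 genes near LD-only loci were higher (20%) and 9 lower (16.4%). Near other C/EBPα loci with this pattern, 85 of 824 genes were higher (10.3%) and 123 lower (14.9%). Over 19 other settings the genes near LD-only loci with Hnf4α on LD alone numbered 43 to 62 higher and 9 to 30 lower. The genes near LD-only loci with H3K27ac on LD alone numbered 21 to 29 higher and 3 to 10 lower.

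**Figure D4:**
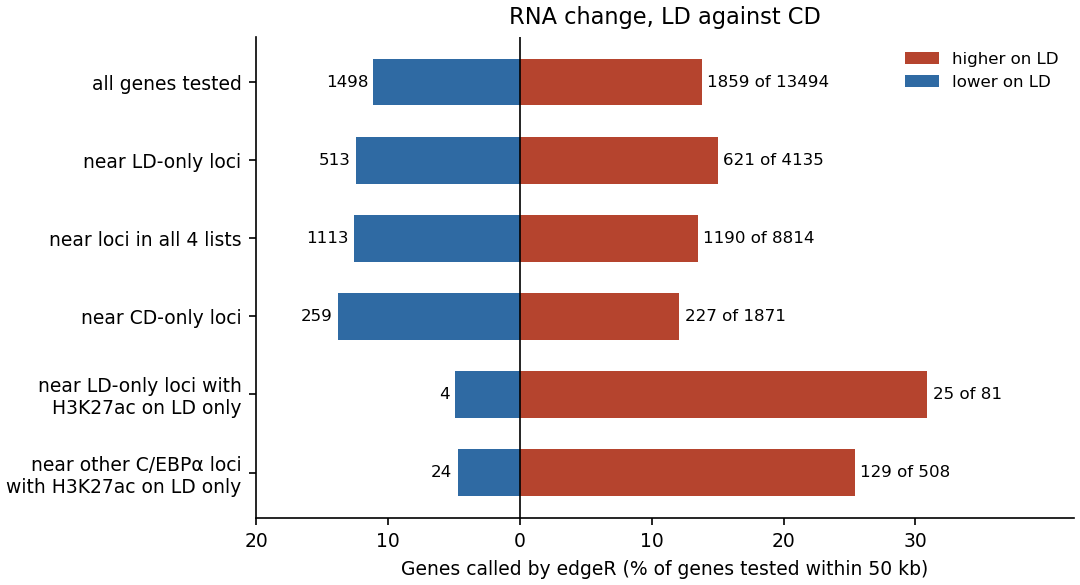
Percentage of genes called higher (red, to the right) or lower (blue, to the left) on LD by edgeR, among the genes tested within 50 kb of each class of loci, with the numbers called. Genes near LD-only loci are close to all genes tested, and genes near loci with H3K27ac on LD alone are higher in 30.9% (LD-only C/EBPα) and 25.4% (other C/EBPα loci).

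The 25 higher genes lay near 22 of these loci, and the diets did not overlap in 20 of them. Some share a locus: Orm2 and Orm3 lay near a single locus, and Cidea, B430212C06Rik and Tubb6 near another. Cidea, which codes for a protein that fuses lipid droplets, was at 22.2, 23.9, 41, 27.8 and 22.7 CPM on LD and at 0.478, 0.705, 0.922, 0.381 and 0.32 on CD. Every LD sample was far above every CD sample, with a log2 fold change of 5.58 ± 0.27 (SE, adjusted p = 2.58e-06). Its LD-only locus, 8.4 kb into the gene (heights 19.5 and 36.5), had H3K27ac in all 3 LD samples, Hnf4α in both LD samples and neither mark on CD. A further LD-only locus with heights 16 and 11 lay 26.3 kb from the Cidea start.

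Gprc5b, an orphan G protein-coupled receptor, was at 2.41, 2.62, 9.37, 11.9 and 14.2 CPM on LD and at 0.414, 0.522, 0.698, 1.08 and 0.437 on CD (log2 fold change 3.68 ± 0.61, adjusted p = 0.00209). The diets did not overlap, although LD replicates 1 and 2 were close to CD. Its LD-only locus, 15.3 kb from the start (heights 21 and 20.5), also had H3K27ac in all LD samples and Hnf4α in both, with neither on CD. This locus was in contact with a promoter on both diets, which was not identified as that of Gprc5b.

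Orm2 and Orm3 code for orosomucoids, acute phase proteins of the plasma. Orm2 was at 24.5, 24.9, 50.8, 51.8 and 48.4 CPM on LD and at 5.83, 3.97, 6.93, 3.24 and 5.04 on CD, with no overlap (log2 fold change 3 ± 0.3, adjusted p = 0.000143). Orm3 rose by 3.35 ± 0.36 (adjusted p = 8.43e-05). Orm1, the most abundant of the family, was at 472.9 to 613.2 CPM over all samples (log2 fold change -0.03, adjusted p = 0.843). The copies are close in sequence, so that reads may be shared among them. Of 3 LD-only loci near Orm2, the one 8.0 kb upstream (heights 11.5 and 15) had H3K27ac in all LD and no CD samples and Hnf4α in both LD samples alone, and the one printed above (34 and 19.5) had H3K27ac in 2 LD samples. The third, 15.6 kb upstream (24.5 and 27.5), had H3K27ac in all 6 samples. The central windows of the LD-only loci near Cidea, Gprc5b and Orm2 had a GC content of 50% to 57.5%, above the median of all LD-only loci.

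Plin2, the main lipid droplet coat protein of hepatocytes, was at 1027.3, 1025.3, 1565.1, 1528.2 and 1497.4 CPM on LD and at 614.7, 487.5, 471.4, 571.5 and 803.7 on CD (log2 fold change 1.17 ± 0.17, adjusted p = 0.000536). The diets did not overlap. The distant locus printed above (heights 39 and 52.5) lay 49.3 kb from the Plin2 start. It had H3K27ac in all LD and no CD samples, and no listed promoter contact on either diet. A different gene, Dennd4c, was nearest to it, at 29.2 kb. Dennd4c RNA averaged 50.1 CPM on LD and 52.4 CPM on CD, and edgeR gave it no call. Which gene this locus acts on was not tested. A further LD-only locus 2.0 kb upstream of Plin2 had H3K27ac in all 6 samples.

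Other genes in this set were Tubb2a, a tubulin (log2 fold change 2.05, adjusted p = 0.00777), Hk2, a hexokinase of low abundance in hepatocytes (1.47, adjusted p = 6.37e-05), Vldlr, a lipoprotein receptor (1.11, adjusted p = 0.0116), Fstl1, a secreted glycoprotein (0.79, adjusted p = 0.000152) and Wwtr1, the Hippo pathway effector TAZ (0.70, adjusted p = 1.94e-05). The 4 lower genes were Mllt4, Bclaf1, Whamm and Ptprt, with log2 fold changes of -0.38, -0.38, -0.4 and -1.2, and Ptprt lost its call without LD replicate 5 or without CD replicate 5. The summed stellate cell markers, 4 of 9 of them higher, were at 754.1 to 1093.4 CPM on LD and 620.8 to 761.2 on CD, and the cholangiocyte markers at 46.2 to 121.6 and 19 to 32.7, where 1 of 6 was higher. This was Spp1, at a mean of 66.47 and 16.78 CPM, which is also in the macrophage list, while Krt19 was at 1.63 and 1.46. Their part in the tubulin genes, Fstl1 and Wwtr1 was not tested.

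Genes with the largest increases near any LD-only locus, among those with separated diets and at least 1 CPM on a diet, were taken as the top 15. Lcn2, the iron-sequestering protein lipocalin 2, was at 24.1, 23.2, 30, 34.1 and 28.2 CPM on LD and at 1.24, 1.15, 2.15, 0.54 and 1.83 on CD (log2 fold change 4.32 ± 0.26, adjusted p = 7.15e-06). Its loci, 8.4 and 26.4 kb upstream, both had H3K27ac in all 6 samples, and the nearer one had Hnf4α in 0 LD and 2 CD samples. Plin4, a lipid droplet coat protein, was at 26.2, 35.7, 45.4, 58.6 and 74.6 CPM on LD and at 2.65, 2.25, 6.56, 4.51 and 4.69 on CD (log2 fold change 3.54 ± 0.38, adjusted p = 0.00024), with its locus at the promoter (26.5 and 22.5) and H3K27ac in all 6 samples. For both genes no LD sample overlapped a CD sample, while H3K27ac was present on both diets.

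Others of the 15 were at low levels. Ttc39a had log2 fold change 4.15 and its antisense partner Ttc39aos1 5.2. Cgref1, a secreted calcium-binding protein, gave 2.8. Chil1, a chitinase-like protein, gave 4.54 with an LD-only locus over its start, Ubd, a ubiquitin-like protein, 3.84, and Hao2, a peroxisomal hydroxyacid oxidase, 3.91. Without LD replicate 4 the log2 fold change of Hao2 was 3.06, and without CD replicate 5 that of Chil1 was 5.16. Cyp2b13, a cytochrome P450 of a family with near-identical copies, had 583 counts over the LD samples and 2 over the CD samples. S100a8, a neutrophil protein, was at 26.4 CPM in LD replicate 2 and at 1.43 to 2.18 in the other LD samples, and its log2 fold change of 3.67 was 1.65 without LD replicate 2. The summed neutrophil markers ranged from 7.2 to 71.1 CPM on LD and from 4.4 to 5.3 on CD. Of the 4 tested, S100a8 alone was higher, and Ly6g was at a mean of 0.87 CPM on LD and 0.85 on CD. Elane, which was not tested, was at 0.14 and 0.04. The summed macrophage markers ranged from 665.4 to 1432.2 CPM on LD and from 447.2 to 851.9 on CD, with 5 of 14 higher. The part of neutrophils and macrophages in Lcn2, Chil1, Ubd and S100a8 was not tested. The hepatocyte markers were at 90193.8 to 113755.6 CPM on LD and 100570.1 to 116378.1 on CD, with 0 of 9 higher and 3 lower, Cps1, Fgb (-0.76) and Serpina1a (-0.49).

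LD-only C/EBPα loci also lay near genes that fell. Fabp5, a fatty acid binding protein, was at 7.66, 12.9, 9.90, 9.13 and 11.2 CPM on LD and at 287.1, 233.2, 56.8, 221.7 and 110.1 on CD, with no overlap (log2 fold change -4.16 ± 0.46, adjusted p = 0.000367). Egfr, the epidermal growth factor receptor, was at 219.8, 290, 157.7, 71.7 and 87.1 CPM on LD and at 903.7, 1106.8, 909.1, 933 and 623.9 on CD, also without overlap (log2 fold change -2.44 ± 0.39, adjusted p = 0.002). Its LD-only locus lay 42.9 kb from the start with a mean height of 13.75. Grm8, a glutamate receptor at low level, fell by 3.29 on the log2 scale although the LD-only locus 5.3 kb from its start was high (57.5 and 76.0), with H3K27ac and Hnf4α on both diets. Serpina9 (-3.86), Serpina4-ps1 (-3.35), Ugt2b38 (-2.98), Gm38416 (-2.92) and Ces4a (-2.11) completed the 8 largest decreases. Serpina4-ps1 was at -4.07 without LD replicate 2 and at -2.68 without CD replicate 4. Serpina9, Serpina4-ps1, Ugt2b38 and Ces4a belong to families of near copies, whose reads may be shared.

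Of the 6 tested genes nearest to the 10 highest loci 2 were called, Cmpk1 and Irs1, against 24.9% of all genes tested. Of the 10 highest LD-only loci, 1 was mitochondrial, 3 were nearest to genes that were not tested for low counts (4930559C10Rik, Tenm2 and 4930556N09Rik), and 4 to genes that were not called. These were Mbnl1, a splicing regulator (log2 fold change 0.02, adjusted p = 0.891), Paqr9 (-0.13, adjusted p = 0.406), Angpt1, a vascular growth factor (0.48, adjusted p = 0.233), and Fnta, a farnesyltransferase subunit (0.05, adjusted p = 0.563). Cmpk1, a nucleotide kinase, rose by 0.39 ± 0.09 (adjusted p = 0.00456), with 108.5 to 156.3 CPM on LD and 94.2 to 101.1 on CD.

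Irs1, the adaptor that carries the insulin signal from its receptor, fell. It was at 27, 19.1, 25.1, 22.8 and 29.9 CPM on LD and at 35.1, 53.9, 52.5, 31.6 and 32.6 on CD, with no overlap (log2 fold change -0.73 ± 0.18, adjusted p = 0.0106). The locus 2.9 kb upstream of Irs1 had heights of 83.0 and 89.0 and 2 C/EBP strings, but neither H3K27ac nor Hnf4α in any sample. Of the other 8 nuclear loci among the 10 highest, 6 had H3K27ac in all 6 samples.

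Genes with the most LD-only loci moved in both directions. The steroid 5-alpha-reductase gene Srd5a1 and its neighbour Nsun2, an RNA methyltransferase, shared 6 LD-only loci, the highest of which had heights of 58.5 and 61. Srd5a1 was at 67.1, 47.6, 62.9, 59.4 and 59.2 CPM on LD and at 150.3, 149.9, 145, 125.3 and 95.9 on CD (log2 fold change -1.17 ± 0.13, adjusted p = 5.59e-05), and Nsun2 fell by 0.35 on the log2 scale. No sample of 1 diet overlapped the other in either gene. Asic5, an ion channel of low level, had 6 and rose by 0.84 ± 0.13 (adjusted p = 0.000534), while Tdo2, the tryptophan dioxygenase next to it, had 5 of them and a log2 fold change of 0.2, and was not called. Gclc, of glutathione synthesis, and Pter, with 5 each, were at 0.40 (adjusted p = 0.0915) and -0.14 (adjusted p = 0.29). In Gclc, LD replicates 3 to 5 were at 460.5 to 556 CPM and LD replicates 1 and 2 at 325.9 and 295.1, within the CD range of 305.9 to 380.1 or below it.

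**Figure D5:**
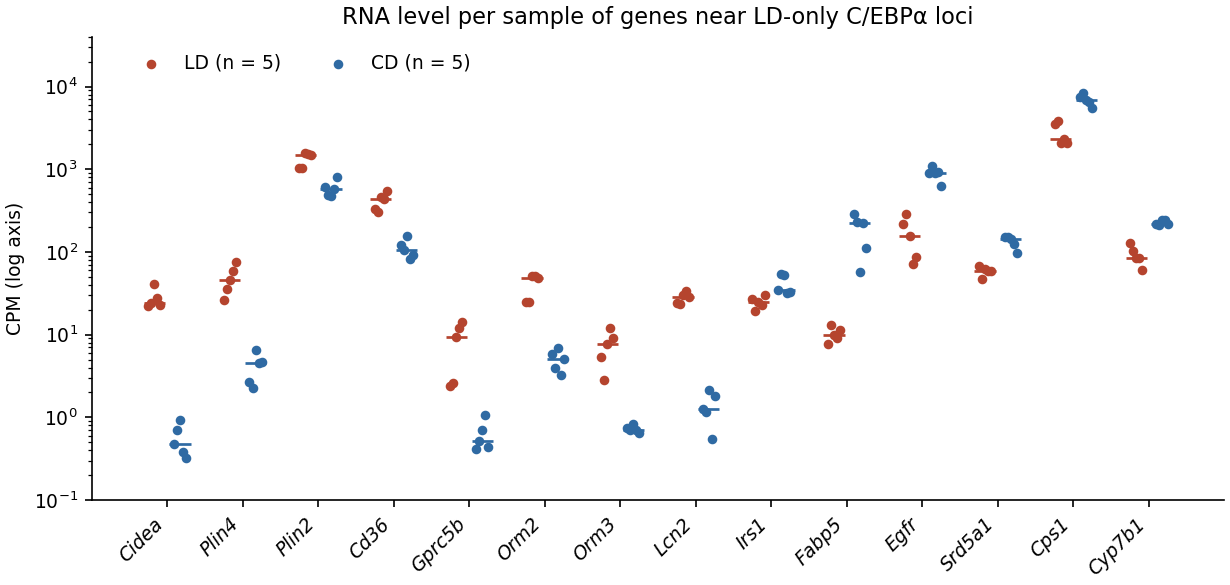
RNA level in CPM (log axis) of 14 genes within 50 kb of an LD-only C/EBPα locus, with 5 samples per diet as points and the median as a line. LD and CD do not overlap in any of them; Cidea, Plin4, Plin2, Cd36, Gprc5b, Orm2, Orm3 and Lcn2 are higher on LD, and the others are lower.

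Genes near LD-only loci were also read by gene list. Of all 13494 genes tested, 4135 had an LD-only locus within 50 kb, and an excess of such genes in a list was not tested. Over all genes tested 13.8% were higher and 11.1% lower, which is the background for each list. The lipid droplet list had 8 genes with an LD-only locus within 50 kb, of which 6 were higher and 0 lower (median log2 fold change 0.90), against 4 higher and 1 lower of 9 without one. Of the adipocyte markers, 3 of 4 tested were higher and 0 lower, with Cfd at a mean of 23.92 CPM on LD and 0.54 on CD and Fabp4 at 20.64 and 7.76. Their summed level was 3570.1 to 5648 CPM on LD and 3045.9 to 4617.9 on CD, most of it Car3, while Adipoq, Lep, Retn and Plin1 were at 0.04 CPM or less on both diets. The others besides Cidea, Plin4 and Plin2 included Fitm1, which promotes droplet formation (0.86 ± 0.16, adjusted p = 0.00268). Of the fatty acid oxidation list 20 genes had such a locus, of which 11 were higher and 0 lower (median 0.49), against 6 of 10 without one. Hadh, an enzyme of the mitochondrial beta-oxidation cycle, rose by 0.68 ± 0.10 (adjusted p = 0.000302), the peroxisomal enzyme gene Hsd17b4 by 0.62 (adjusted p = 0.000662), the carnitine carrier gene Slc25a20 by 0.57 (adjusted p = 0.000532) and Eci1 by 0.55 (adjusted p = 0.000549). The shares of higher genes were thus high in both parts of these lists, with and without an LD-only locus.

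Of the fatty acid uptake and binding list 11 genes had an LD-only locus, with 4 higher and 1 lower, Fabp5, against 3 higher and 0 lower of 4 without one. Cd36, the fatty acid translocase, was at 329.3, 303.9, 462.3, 434.3 and 541.4 CPM on LD and at 121.9, 104.6, 156.8, 81.9 and 91.9 on CD, with no overlap (log2 fold change 1.89 ± 0.20, adjusted p = 0.000104). Its LD-only loci within 50 kb lay 45.4 kb downstream (heights 10 and 12.5) and 32.8 kb upstream of the start (8 and 12). The upstream one had H3K27ac in 2 LD samples and no CD sample. A higher LD-only locus 111.3 kb away (48 and 70) was in contact with the Cd36 promoter on both diets. The CHiCAGO scores were 7.19 on LD and 6.54 on CD, and this locus had H3K27ac and Hnf4α in every sample. Fabp2 (0.72, adjusted p = 0.000184) and Lpl, lipoprotein lipase (0.91, adjusted p = 0.00887), also rose.

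In the de novo lipogenesis list more genes were lower than higher. Of its 7 genes with an LD-only locus 5 were lower and 0 higher (median -0.94), and of 8 without one 4 were lower and 1 higher. Scd1, the stearoyl-CoA desaturase, was at 9130.1 to 15771 CPM on LD and 19621.4 to 33950.9 on CD (log2 fold change -0.96 ± 0.17, adjusted p = 0.00152). Mlxipl, which codes for the carbohydrate-response factor ChREBP, fell by 1.06 on the log2 scale (adjusted p = 8.57e-06), and Acaca, acetyl-CoA carboxylase, by 0.98 (adjusted p = 6.35e-05). The urea cycle and amino acid list had 9 genes with an LD-only locus, 4 lower and 0 higher, and of 7 without one 4 were lower and 0 higher. Cps1, which catalyses the entry step of the urea cycle, was at 3560.4, 3822.1, 2050.4, 2303.4 and 2050 CPM on LD and at 7424.8, 8342.3, 6913.6, 6489.7 and 5574.5 on CD, without overlap (log2 fold change -1.33 ± 0.19, adjusted p = 0.000545).

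The remaining lists were mixed. With an LD-only locus, the bile acid and sterol list had 1 higher and 2 lower of 5, among them Cyp7b1, an oxysterol hydroxylase (-1.31, adjusted p = 0.000202), against 1 and 2 of 9 without one. The gluconeogenesis and glycogen list had 1 higher and 2 lower of 7, including Ppargc1a, a coactivator of fasting genes (-0.73, adjusted p = 0.000701), against 0 and 3 of 7 without. The acute phase list had 4 higher and 1 lower of 10 with such a locus and 9 higher and 3 lower of 13 without, and Hpx, the haem carrier hemopexin, rose by 0.54 (adjusted p = 0.000841). The drug metabolism list had 2 higher and 2 lower of 8 with such a locus and 8 higher and 1 lower of 11 without, with Cyp1a2 lower (-0.90, adjusted p = 0.000107). The circadian clock list had 0 higher and 1 lower of 6, against 0 and 1 of 10. The higher gene of the bile acid list (Cyp8b1) and the lower gene of the clock list (Cry2), as well as Hpd of the urea cycle list and Tat of the gluconeogenesis list, each lost the call in at least 7 of the alternatives run, most of them with 1 library left out.

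Factors that could bind these loci were measured as RNA. Cebpa itself, with an LD-only locus 2.2 kb from its start (mean height 12.5), was at 327.9, 288.5, 333.7, 354.5 and 298.8 CPM on LD and at 391.2, 419.3, 362.3, 363.2 and 384.1 on CD. Every LD sample was below every CD sample, but the log2 fold change of -0.26 ± 0.08 (adjusted p = 0.0202) did not reach the fold threshold. Hnf4a RNA was at -0.26 ± 0.07 (adjusted p = 0.0176) and was not called either. Cebpb (0.27, adjusted p = 0.187), Cebpd (0.54, adjusted p = 0.0848), Cebpg (-0.08, adjusted p = 0.414) and Ddit3 (0.28, adjusted p = 0.119) were not called, Cebpz was lower (-0.29, adjusted p = 0.0054) and Cebpe was higher (0.63, adjusted p = 0.0068) at 7.35 to 10.3 CPM against 4.65 to 7.77 CPM. Among AP-1 and ETS factors with an LD-only locus, Atf3 (1.94, adjusted p = 0.000158), Jun (1.23, adjusted p = 0.00118) and Spi1 (0.72, adjusted p = 0.0303) were higher, 3 of 5 with 0 lower, against 1 higher and 0 lower of 10 without such a locus. Spi1 lost its call without LD replicate 4 and without CD replicate 3, 4 or 5, which leaves 2 of 5. Of the liver regulators with an LD-only locus 2 of 10 were higher and 1 lower, against 1 and 3 of 7 without. The higher genes were Ppara (0.34, adjusted p = 0.016) and Nr1i3, the receptor CAR (0.67, adjusted p = 0.00984), and the lower gene was Nr5a2 (-0.31, adjusted p = 0.0019).

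Genes at the other end of a promoter contact were set beside all genes tested, of which 13.8% were higher and 11.1% lower. Of 1383 genes tested with a contact from an LD-only locus on either diet, 189 (13.7%) were higher and 215 (15.5%) lower, with a median log2 fold change of -0.04. Where the contact was in both lists, 121 of 842 (14.4%) were higher and 148 (17.6%) lower. Where it was in the LD list alone, 33 of 234 were higher and 26 lower, and where it was in the CD list alone, 35 of 307 were higher and 41 lower. Targets beyond 50 kb with the largest changes were Fabp5, in contact with loci 251.3 and 277.7 kb away on both diets (CHiCAGO scores 8.01 and 14.94 on LD, 8.26 and 13.4 on CD), Exo1, a DNA repair nuclease (log2 fold change 2.81, contact in the CD list alone), Fignl1 (2.66), the chemokine gene Ccl3 (2.64, or 3.39 without CD replicate 2), the histone gene Hist1h3g (2.63) and Sema5b (2.61). For Fignl1 the scores were 26.42 on LD and 33.23 on CD at a distance of 165.8 kb.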

How the data were processed

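The authors aligned reads to mm9 and called C/EBPα and Hnf4α peaks with HOMER in each sample, and the deposited lists give each peak a height (a signal, scaled to 10000000 tags), a HOMER score and its fold enrichment above input. The deposited H3K27ac lists are SICER intervals per sample. The deposited RNA counts were made with STAR 2.5 and featureCounts 1.5.0-p1, unnormalized and by strand, and the authors' TPM values served as an alternative. The deposited PCHi-C lists hold CHiCAGO scores of at least 5 on replicates that the authors pooled. Reference sequence was NCBIM37, the same assembly.

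Peaks sharing at least 1 bp were merged. Overlaps were taken at 1 bp, and distances from the centre of a locus to the TSS of the RefSeq genes in the count table. Exons and introns came from GENCODE on NCBIM37. Counts were fitted in R 4.3.3 with edgeR 4.0.16 (TMM, filterByExpr, robust quasi-likelihood fit), with DESeq2 1.42.0 and limma 3.58.1 as alternatives. Loci were handled in Python 3.11.15 with pandas 2.3.3, numpy 2.4.6, scipy 1.17.1 and pysam 0.24.0. The fit and the merging were tested on simulated data. Members and gene lists were chosen with earlier results of these data known. Named genes were the 15 highest and 8 lowest called genes with separated diets, the nearest genes of the 10 highest loci, the 6 genes with the most loci, the 6 capture targets with the largest change, the C/EBP family and up to 4 genes per list; genes near loci with H3K27ac on LD alone were named after their values were seen. Motif strings were textbook sites. The authors' own columns of diet comparisons (fold changes and p-values of RNA) and the domain lists were not used.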

Additional observations from a re-analysis of the deposited data

Results flagged for a closer look

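Of 222 groups of 5 RNA samples, from the named genes and the called genes near LD-only loci with H3K27ac on LD alone, 13 had a sample far from the other 4 by Dixon's test at 95%, which chance gives in about 1 in 20 groups. On LD these were Hao2 in replicate 4 (16.74 CPM, others 1.611 to 4.557), S100a8 in replicate 2 (26.35 CPM, others 1.426 to 2.183), Hnf4a in replicate 4 (458.9 CPM, others 372.2 to 397.1), Atf3 in replicate 1 (3.815 CPM, others 7.802 to 8.764) and 9130401M01Rik in replicate 1 (23.84 CPM, others 26.73 to 27.68). On CD they were Serpina4-ps1 in replicate 4 (124.3 CPM, others 26.99 to 34.3), Grm8 in replicate 4 (4.795 CPM, others 1.76 to 2.591), Cry1 in replicate 3 (7.765 CPM, others 6.213 to 6.542), Sult1e1 in replicate 5 (0.3202 CPM, others 0.06351 to 0.08379), Arl11 in replicate 4 (0.6987 CPM, others 0.2868 to 0.3915), Mllt4 in replicate 1 (61.78 CPM, others 71.23 to 73.99), Tubb2a in replicate 4 (28.93 CPM, others at least 80.16) and Cyp2b13 in replicate 3 (0.05586 CPM, others 0).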

How the results depend on the processing

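The number of LD-only loci was 5028 to 5078 with other merging rules or equal list lengths, 4094 above the lower quartile of height, and 6393 to 16694 with a C/EBPα sample left out, since fewer lists then set the rule. The H3K27ac difference was 3.93 to 5 points with a sample left out, and 6.57 in the 1649 loci with a GC content of 45% or more. The Hnf4α difference was 1.17 to 14.51 points with a sample left out. The difference in promoter contact was -0.57 points at a CHiCAGO score of at least 10 (5.69% and 6.26%). Of the genes near LD-only loci 1134 were called. The count was 611 for a TSS within 20 kb and 633 for the nearest gene alone (308 higher and 325 lower, so that 48.7% of the calls were higher), and, in settings added after seeing the data, 544 for loci with TTGCNNAA and 578 for loci at 45% GC or more, all of which hold fewer genes by construction. It was 971 to 1177 with a sample left out. Called genes split into 621 higher and 513 lower (54.8% higher) with counts, but into 760 and 261 (74.4%) with limma on log2(TPM + 1), where the median of all genes shifted to 0.06, and into 772 and 266 (74.4%) with 0.1 added. Of 111 genes run through these settings (the named genes tested, the called genes near LD-only loci with H3K27ac on LD alone, and Orm1), 0 reversed a called direction.

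A replicate block gave 1090 calls near LD-only loci. The correlations of deviations between same-numbered samples were -0.113, 0.217, 0.0384, 0.0208 and -0.0392, so that the numbers were not taken to pair the samples. Of 69 called genes chosen by the naming rule, 58 stayed called in all alternatives that tested them, and of 29 called genes near LD-only loci with H3K27ac on LD alone 24 did. Hpd, Cry2, Cyp8b1, S100a8, Tat, Spi1, Nr5a2, Cebpz, Nsun2, Nr1i3 and Serpina4-ps1, and in the second group Bcap31, Bclaf1, Fsd2, Ptprt and Tubb2a (the last with the replicate block), lost the call in at least 1. Depth is not given for regions outside peaks, so that a locus without a peak on CD gives no measure of how far C/EBPα fell.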

Other observations

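LD replicates 1 and 2 were often the LD samples nearest to CD. Of the 621 genes near LD-only loci that were higher on LD, 228 (36.7%) had these as the lowest LD samples, against 2.7% to 14.3% for each of the other pairs of LD samples. Among all 1859 higher genes the share was 30.9%. Of the 513 lower genes near LD-only loci, 124 (24.2%) had them as the highest LD samples, against 4.5% to 18.5% for the other pairs. The pair was singled out after its values were seen. With LD replicates 3 to 5 alone against CD, a setting also added after seeing the data, edgeR called 678 genes higher (16.3%) and 539 lower (12.9%) of 4169 near LD-only loci, against 1891 (13.9%) and 1579 (11.6%) of all 13643 tested, and 28 higher and 10 lower of 83 near those with H3K27ac on LD alone.

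LD-only loci formed 21 groups of at least 3 within 10 kb of each other. The tallest lay at Asic5 (mean heights 10.25 to 53.75 over 17.1 kb), and others at Cfhr2 (10 to 41.5), Pter (16.25 to 37.25), Pcx (9.25 to 28.5), Hif1a (7.25 to 15.75), Foxa2 (7.5 to 15) and Srd5a1 (8.5 to 9.75). Pcx, the pyruvate carboxylase gene of gluconeogenesis, had 3 of the loci and a log2 fold change of 0.18 (edgeR, Benjamini-Hochberg adjusted p = 0.196).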
